A study of Mus musculus with 2 samples.

Results

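Mir375 and the 3 genes of the miR-7 family, Mir7-1, Mir7-2 and Mir7b, were described in microRNA sequencing libraries of the mouse adrenal gland. The members were taken by gene symbol, matched through the Ensembl identifier in the annotation, and all 4 were found among 2202 annotated microRNA genes. The tissue was whole adrenal gland from males of the B6CASTF1/J strain, an F1 hybrid of C57BL/6J and CAST/EiJ, at an age of 36 days. The labels list no treatment. There was 1 group with 2 libraries, called replicates 1 and 2 after the biological replicate numbers in the labels. The labels number the animals separately but give a single donor record for both, and no other group exists, so every test here sets 1 library against the other and says nothing of a condition. The gland is bulk tissue of cortex and medulla, and the files hold microRNA genes only, so the messenger RNAs that define adrenal cell types were not measured.

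MicroRNA genes are transcribed as hairpins, from which a 5′ arm (5p) and a 3′ arm (3p) can be cut as mature RNAs. A mature microRNA recognises messenger RNAs mainly through its seed, bases 2 to 8 from its 5′ end, and represses them. miR-375 is known as an abundant microRNA of endocrine cells, above all the insulin-producing cells of the pancreatic islet, where it restrains insulin secretion. miR-7 is known from islets, pituitary and hypothalamus and is bound by the circular RNA Cdr1as. Both have been studied in chromaffin cells, the catecholamine-secreting cells of the adrenal medulla.

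The mature sequences are shown because they set which reads can be told apart between the miR-7 genes. They come from RefSeq (GRCm38.p6), run 5′ to 3′, and have the seed in capitals. All 4 genes matched a hairpin entry there. Mir375 gives mmu-miR-375-5p and mmu-miR-375-3p.
mmu-miR-375-5p: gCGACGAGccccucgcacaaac
mmu-miR-7a-5p (Mir7-1 and Mir7-2): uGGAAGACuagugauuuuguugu
mmu-miR-7b-5p (Mir7b): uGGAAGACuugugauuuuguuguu
mmu-miR-7a-1-3p (Mir7-1): cAACAAAUcacagucugccaua
mmu-miR-7a-2-3p (Mir7-2): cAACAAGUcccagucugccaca
mmu-miR-7b-3p (Mir7b): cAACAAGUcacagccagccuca
The 5p arms of the 3 miR-7 genes share 1 seed, ggaagac, which no other gene has among the 1738 mature entries of that table. For Mir375, the seed of the 5p arm alone, cgacgag, was compared, and no other gene of the table has it. The sequence of mmu-miR-375-3p is not given here and its seed was not compared. Whether other genes share the seed of that arm was thus not examined. On the 3p side, Mir7-2 and Mir7b share the seed aacaagu, while Mir7-1 has aacaaau.

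The hairpins of the miR-7 genes are shown with both mature arms in capitals, to set the shared arm against the parts that differ.
Mir7-1: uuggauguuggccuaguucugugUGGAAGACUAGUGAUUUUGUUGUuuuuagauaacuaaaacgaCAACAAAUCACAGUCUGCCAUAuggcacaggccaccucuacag
Mir7-2: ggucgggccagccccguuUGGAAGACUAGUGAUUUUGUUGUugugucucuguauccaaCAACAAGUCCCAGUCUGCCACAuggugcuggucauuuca
Mir7b: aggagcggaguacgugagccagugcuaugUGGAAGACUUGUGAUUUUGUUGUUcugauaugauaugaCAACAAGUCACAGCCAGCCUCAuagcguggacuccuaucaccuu
Mir7-1 and Mir7-2 hold the same 5p arm of 23 bases and share an unbroken run of 24 bases around it. The arm of Mir7b differs from it by A10U, counted from 1 at the 5′ end with the base of mmu-miR-7a-5p first, and is 24 bases long. Because of that base, the longest run Mir7b shares with either of the others is 14 bases. The 3p arms are distinct. From mmu-miR-7a-1-3p to mmu-miR-7a-2-3p the differences are A7G, A10C and U21C, and mmu-miR-7b-3p differs from these arms at 5 and 4 positions, respectively. No other annotated microRNA hairpin shares a run of 18 bases, in either orientation, with Mir375 or Mir7b, whereas Mir7-1 and Mir7-2 each share one with the other alone.

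Coordinates are in mm10, counted from 1, with the GENCODE M21 annotation. Mir375 (ENSMUSG00000065616.3) lies on the minus strand of chromosome 1, from 74900658 to 74900721, between genes. Its neighbours are Cfap65, which encodes a cilium and flagellum protein, at 1350 bases, and the crystallin gene Cryba2 at 7515 bases. Mir7-1 (ENSMUSG00000065434.1) lies on the minus strand of chromosome 13, from 58392779 to 58392886, in an intron of Hnrnpk on the same strand. Hnrnpk encodes an abundant RNA-binding protein. Mir7-2 (ENSMUSG00000065609.1) lies on the plus strand of chromosome 7, from 78888277 to 78888373, between genes and 7481 bases from the nuclease gene Aen. Mir7b (ENSMUSG00000065491.1) lies on the plus strand of chromosome 17, from 56242988 to 56243098. It overlaps no annotated gene and starts 183 bases from the end of the long noncoding gene AC026385.1, on the same strand. The members are single hairpins rather than members of a cluster. Within 100 kb, the annotation holds Mir6369 near Mir7-1 and Gm44397 near Mir7b, each with 0 counts in both libraries, and no microRNA gene near Mir375 or Mir7-2.

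Replicate 1 held 4494857 counts on microRNA genes in the sense orientation and replicate 2 held 2078824. Levels are given as CPM, the counts scaled to a library total of 1000000 over these gene counts. For a count of 0, a fixed limit of 3 counts was used, equal to 0.667 and 1.44 CPM in replicates 1 and 2. That limit is not a Clopper-Pearson bound. Intervals given are exact Clopper-Pearson 95% intervals, and intervals and limits cover counting error only. Reads that map to several places are listed apart from the genes and made up 29.8% and 21.5% of all reads. The libraries differed in markers of other cell types. The 4 acinar pancreas genes summed to 0 counts in replicate 1 and 677 in replicate 2, the 5 epithelial miR-200 genes to 291 and 7434, and the 3 erythroid genes to 71204 and 2269.

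By the counts assigned to genes, Mir375 was one of the highest microRNA genes of the gland in both libraries. It had 198433 sense counts in replicate 1 and 107641 in replicate 2. These are 44147 CPM (43957 to 44337) and 51780 CPM (51479 to 52082), with a mean of 47963 ± 5397 CPM (SD, n = 2). It was the gene of rank 8 in replicate 1 and of rank 5 in replicate 2. Reads that map to several places are not in these counts. Genes that share their mature sequence with a copy may thus be ranked too low. In the order of mean CPM the next gene above was the endothelial Mir126a, with 74830 and 64786 CPM, and the 2 genes did not overlap. The next below was Mirlet7i, with 44303 and 35156 CPM, which overlapped Mir375, so their order is not resolved. In bulk tissue, fewer cells of a type and less RNA per cell cannot be told apart, and this holds for every level given here.

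**Figure D1:**
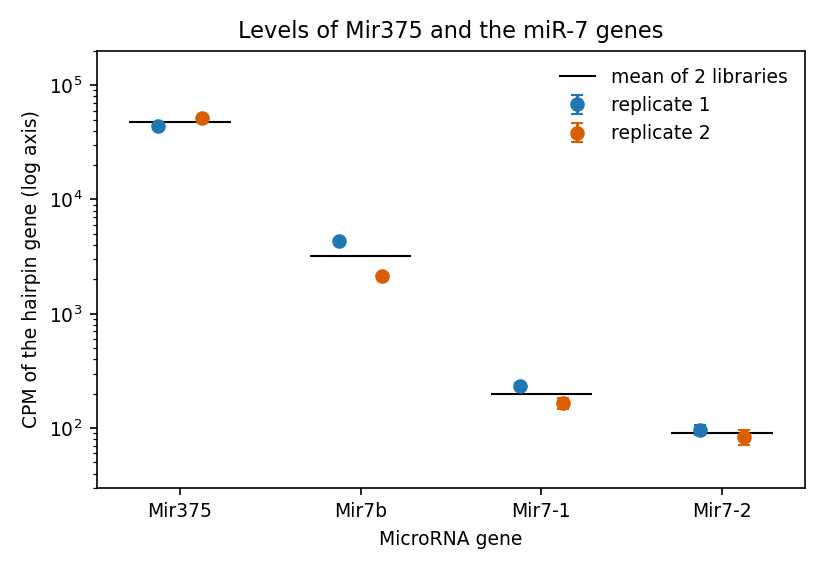
CPM of each gene (log axis) in replicate 1 (blue) and replicate 2 (orange), with exact 95% counting intervals as bars, mostly smaller than the points, and the mean of the 2 libraries as a black line. Mir375 sits at 44147 and 51780 CPM, above all miR-7 genes, and no gene's values overlap those of another.

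Of the counts assigned to the miR-7 genes, Mir7b held nearly all. It had 19445 and 4426 counts in replicates 1 and 2, or 4326 CPM (4266 to 4387) and 2129 CPM (2067 to 2193), with a mean of 3228 ± 1553 CPM (SD, n = 2). Replicate 1 was the higher library for Mir7b, and without it the level was 2129 CPM. Mir7-1 had 1046 and 342 counts, or 233 CPM (219 to 247) and 165 CPM (148 to 183), and a mean of 199 ± 48.2 CPM. Mir7-2, the lowest of the 4, had 433 and 173 counts, or 96.3 CPM (87.5 to 106) and 83.2 CPM (71.3 to 96.6), and a mean of 89.8 ± 9.27 CPM. Its 2 counting intervals overlapped. All 3 miR-7 genes were higher in replicate 1 on the CPM scale, the opposite of Mir375. The order Mir375, Mir7b, Mir7-1, Mir7-2 was the same in both libraries, and the values of neighbours in it did not overlap.

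By mean CPM, Mir7b ranked 43, Mir7-1 164 and Mir7-2 202 among the 2202 genes. Mir7b lay between Mir93 (3689 and 3259 CPM) and Mir100 (3649 and 2006 CPM). Mir7-1 lay between Mir381 (165 and 239 CPM) and Mir125b-2 (177 and 216 CPM), and Mir7-2 between Mir5099 (70.7 and 115 CPM) and Mir223 (101 and 77.9 CPM). The 2 values of each of these 6 neighbours overlapped those of the member they flank, so the exact ranks of the miR-7 genes are not resolved.

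Together the 4 genes held 4.88% of the gene counts in replicate 1 (4.86 to 4.90) and 5.42% in the other library (5.38 to 5.45), on average 5.15% ± 0.379 (SD, n = 2). Mir375 alone held 4.41% and 5.18%, while the 3 miR-7 genes together held 0.466% (0.459 to 0.472) and 0.238% (0.231 to 0.244). Nearly all of the joint share was therefore Mir375. The shares are of gene counts, which leave out reads that map to several places. All counts were on the annotated strand apart from 1 antisense count, of Mir375 in replicate 1.

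Within the miR-7 family, Mir7b took 92.9% of the 20924 counts of replicate 1 (92.6 to 93.3) and 89.6% of the 4941 counts of replicate 2 (88.7 to 90.4). Mir7-1 took 5.00% (4.71 to 5.30) and 6.92% (6.23 to 7.67), and Mir7-2 took 2.07% (1.88 to 2.27) and 3.50% (3.01 to 4.05). Mir7b had the larger share in replicate 1, and both other genes in replicate 2. Of the windows of 22 bases in their hairpins, 87 in Mir7-1 and 76 in Mir7-2, only the 3 windows over the 5p arm occur in both. A read of mmu-miR-7a-5p that lies inside the shared run of 24 bases fits either hairpin, and reads with several mapping positions were not assigned to genes. The values of Mir7-1 and Mir7-2 are therefore uncertain and may be too low, and their order against Mir7b was not tested for reads of that arm. The counts do not separate the arms of a hairpin.

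Ratios between genes of 1 library do not depend on how the libraries are scaled. They are ratios of CPM, not divided by hairpin length (64 bases for Mir375, 111 for Mir7b, 108 for Mir7-1 and 97 for Mir7-2), since 1 read covers a mature arm. Mir375 stood 10.2-fold above Mir7b in replicate 1 (10.1 to 10.4) and 24.3-fold in replicate 2 (23.6 to 25.1), or 17.3 ± 9.98 on average (SD, n = 2). The ratio was thus 2.38 times larger in replicate 2, and without that library it was 10.2. Mir7b stood 18.6-fold (17.5 to 19.8) and 12.9-fold (11.6 to 14.5) above Mir7-1, and 44.9-fold (40.8 to 49.5) and 25.6-fold (21.97 to 29.96) above Mir7-2. These ratios may be too high, since reads that fit both Mir7-1 and Mir7-2 may be missing from their counts. Mir7-1 stood 2.42-fold (2.16 to 2.71) and 1.98-fold (1.64 to 2.39) above Mir7-2. The ratio of these last 2 genes changed least between the libraries, and its counting intervals overlapped.

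Between the libraries, Mir7b differed most among the 4 and, after TMM scaling, Mir375 least. With library size alone, Mir7-2 (-0.21) differed less than Mir375 (0.23). The counts of Mir7-1 and Mir7-2 may lack reads that fit both hairpins, so their ratios between the libraries carry that limit too. Ratios are replicate 2 over replicate 1 on the log2 scale after TMM scaling, and the test is an exact binomial one, two-sided, that takes counting noise as the only error. For Mir375 the log2 ratio was 0.04 (95% counting interval 0.03 to 0.06), with a Benjamini-Hochberg adjusted p of 5.7e-16 from the exact binomial test. For Mir7b it was -1.21 (-1.26 to -1.16), or 2.31-fold higher in replicate 1. For Mir7-1 it was -0.69 (-0.87 to -0.51), with an adjusted p of 7.1e-15 from the exact binomial test. For Mir7-2 it was -0.40 (-0.66 to -0.14), with an adjusted p of 0.0030 from the exact binomial test.

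All 4 genes passed that test, 1 higher in replicate 2 and 3 higher in replicate 1. Of the 333 genes that reached 10 counts in each library, 260 (78.1%) passed, 131 (39.3%) higher in replicate 2 and 129 (38.7%) higher in replicate 1. Passing it does not set these 4 genes apart. Their median log2 ratio was -0.54, against 0.01 over all genes tested. In size, the ratio of Mir375 was larger than that of 1.80% of the genes tested, and those of Mir7-2, Mir7-1 and Mir7b were larger than 27.9%, 53.2% and 79.0%.

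**Figure D2:**
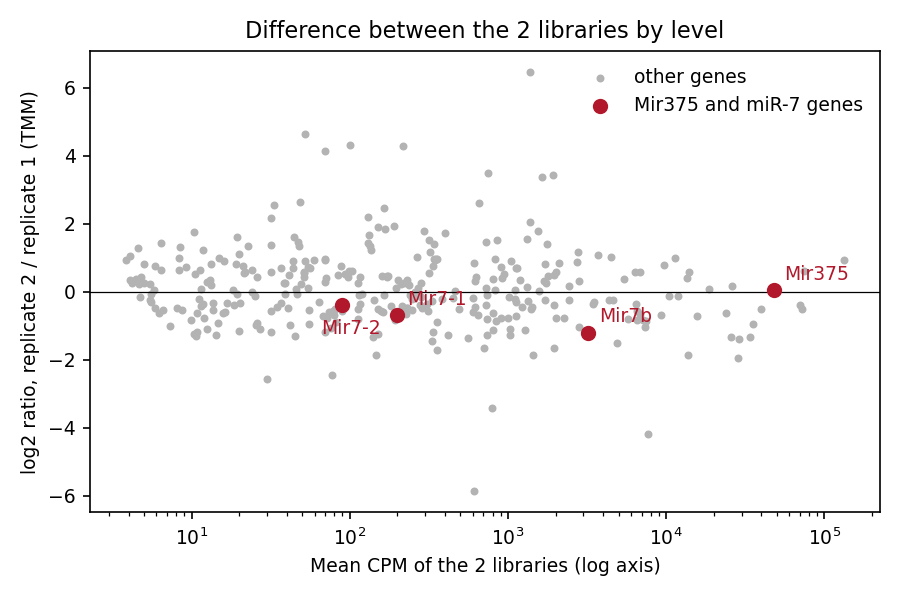
Log2 ratio of replicate 2 over replicate 1 after TMM scaling against the mean CPM (log axis) for the 333 genes that reached 10 counts in each library, with Mir375 and the miR-7 genes in red. Mir375 lies near 0 at the high end, Mir7b at -1.21, and all 4 lie within the cloud of the other genes.

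The edgeR exact test sets each gene against the general difference between the libraries, a biological coefficient of variation of 52.2%. It called 6 of 333 genes (1.80%) after adjustment at 0.05, and 17 had an unadjusted p below 0.05. None of the 4 genes was among either. Their edgeR unadjusted p were 0.28 for Mir7b, 0.54 for Mir7-1, 0.73 for Mir7-2 and 0.97 for Mir375, with adjusted p of 0.99 for each. With 1 library for each replicate, animal, dissection, library preparation and sequencing cannot be told apart.

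The direction of Mir375 depended on the setting, while all 3 miR-7 genes were higher in replicate 1 under the 8 settings of scaling, filter, column and GC run. With library size alone, under which the median of all genes moved to 0.19, the log2 ratio of Mir375 was 0.23, that of Mir7b -1.02 and that of Mir7-1 -0.50. Mir7-2 was then at -0.21 and no longer passed the exact binomial test (adjusted p = 0.13). Without a count minimum, Mir375 turned to -0.12, where the median of the 749 genes was -0.16. With a correction for the GC content of the hairpin, Mir375 turned to -0.48, where the median of the 333 genes was -0.11. The hairpin of Mir375 has a GC content of 67.2%, against 46.8% in Mir7b, 41.7% in Mir7-1 and 50.5% in Mir7-2. Over the 333 genes the log2 ratio rose by 0.27 for every 10 percentage points of GC. Under that correction Mir7b stayed at -1.19, Mir7-1 at -0.53 and Mir7-2 at -0.48.

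**Figure D3:**
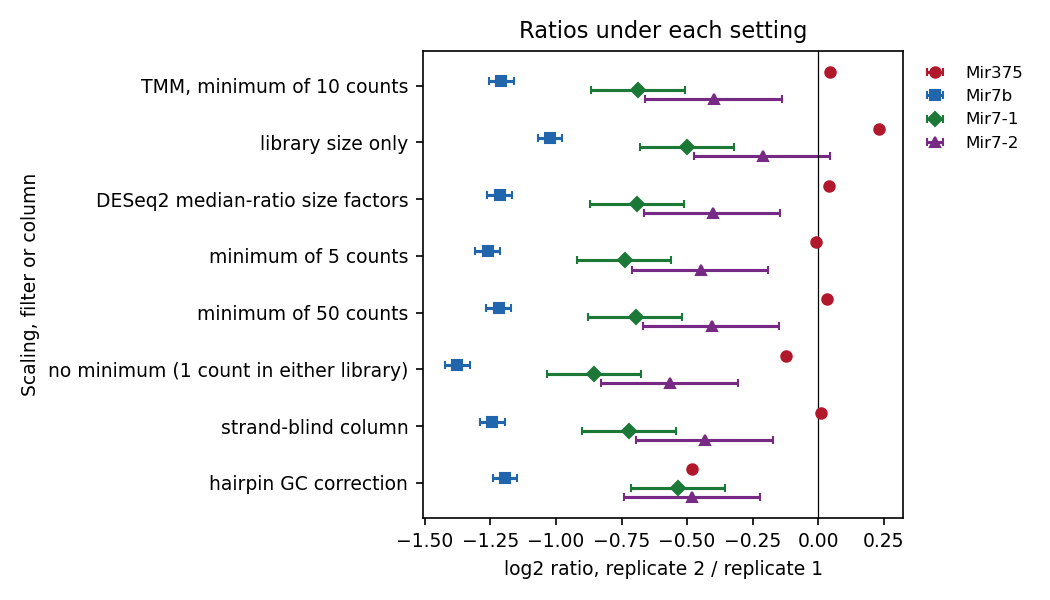
Log2 ratio of replicate 2 over replicate 1 for the 4 genes (x axis) under 8 settings of scaling, count filter, strand column and GC correction (y axis), with 95% counting intervals as bars. Mir7b stays between -1.38 and -1.02, whereas Mir375 moves from 0.23 with library size alone to -0.48 with the GC correction.

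Markers of other cell types differed between the libraries and are given beside these levels. Mir375 is also a gene of pancreatic islet cells, and the acinar pancreas genes were seen in replicate 2 alone. There Mir217, Mir216b and Mir216a had 530, 91 and 56 counts, while Mir216c had 0, and in replicate 1 all 4 had 0 counts. Mir375 stood at 44147 CPM in replicate 1, the library with 0 acinar counts, and at 51780 CPM in replicate 2, where the acinar genes summed to 326 CPM. The miR-200 genes of epithelial cells summed to 64.7 and 3576 CPM in the same order. All 5 of them passed the binomial test toward replicate 2, as did 39.3% of the genes tested. The edgeR exact test called 4 of the 5, and 6 of all 333 genes (1.80%). The miR-7 genes moved the other way, from 4655 to 2377 CPM in sum. The part of pancreas or epithelial cells in the difference between the libraries was not tested.

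Of the 7 listed genes of neurons, 1 had at least 10 counts in both libraries. It was Mir137, with 775 and 339 CPM, higher in replicate 1 (log2 ratio -1.38), as was Mir7b. The neuronal copies Mir129-1 and Mir129-2, listed with the endocrine genes, were higher in replicate 2 (log2 ratios 2.56 and 1.84). Mir153 of that same list was higher in replicate 1 (-2.45). Mir9-1 had 3 counts in replicate 1 and 0 in replicate 2, and the other 5 genes of the neuron list, Mir124a-1, Mir124a-2, Mir124a-3, Mir9-2 and Mir9-3, had 0 counts in both. These numbered copies share their mature sequence, so their reads may be outside the gene counts. The same limit may hold for the copies Mir129-1 and Mir129-2, whose mature sequences were not compared here. The erythroid genes summed to 15841 and 1091 CPM, the same direction as the miR-7 genes. Mir451a (14362 and 903 CPM) and Mir144 (1441 and 153 CPM) carried that sum. Mir486 changed little, with 38.7 and 35.1 CPM (log2 ratio -0.33). The liver gene Mir122 had 1383 and 2842 CPM. Striated muscle genes had 5 and 11 counts, all from Mir206. The part of nerve or blood cells in the level of Mir7b was not tested.

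The 10 other listed microRNA genes known from endocrine and secretory cells stood far below Mir375. They summed to 1823 and 3917 CPM, below the sum of the miR-7 genes in replicate 1 (4655 CPM) and above it in replicate 2 (2377 CPM), and all 10 had at least 10 counts in both libraries. By the exact binomial test 3 were higher in replicate 1, 6 were higher in replicate 2 and 1 was not called, with a median log2 ratio of 1.46. Over all 333 genes tested, 38.7% were higher in replicate 1, 39.3% higher in replicate 2 and the median log2 ratio was 0.01. The edgeR exact test called none of the 10, against 1.80% of all genes. The highest by mean was the activity-induced Mir132 at 629 and 2465 CPM, which stood below Mir182 in replicate 1, with its cluster partner Mir212 at 42.3 and 219 CPM. Of the sensory and endocrine cluster, Mir182 had 756 and 538 CPM, Mir183 had 89.0 and 68.8 CPM and Mir96 had 6.45 and 17.3 CPM. Mir182 (log2 ratio -0.68) and Mir183 (-0.56) were higher in replicate 1, in the direction of the miR-7 genes, and Mir96 (1.24) was higher in replicate 2.

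Mir153 had the largest ratio toward replicate 1 among them, with 127 and 26.5 CPM (log2 ratio -2.45). Mir129-1 and Mir129-2, neuronal copies, had 8.68 and 58.2 CPM and 65.9 and 268 CPM. Mir204, also found in islets and in kidney, had 57.0 and 207 CPM. Mir184 had 41.6 and 49.5 CPM and did not pass the binomial test (log2 ratio 0.07), with a ratio near that of Mir375. No single direction was thus shared by the miR-7 genes and these genes.

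**Figure D4:**
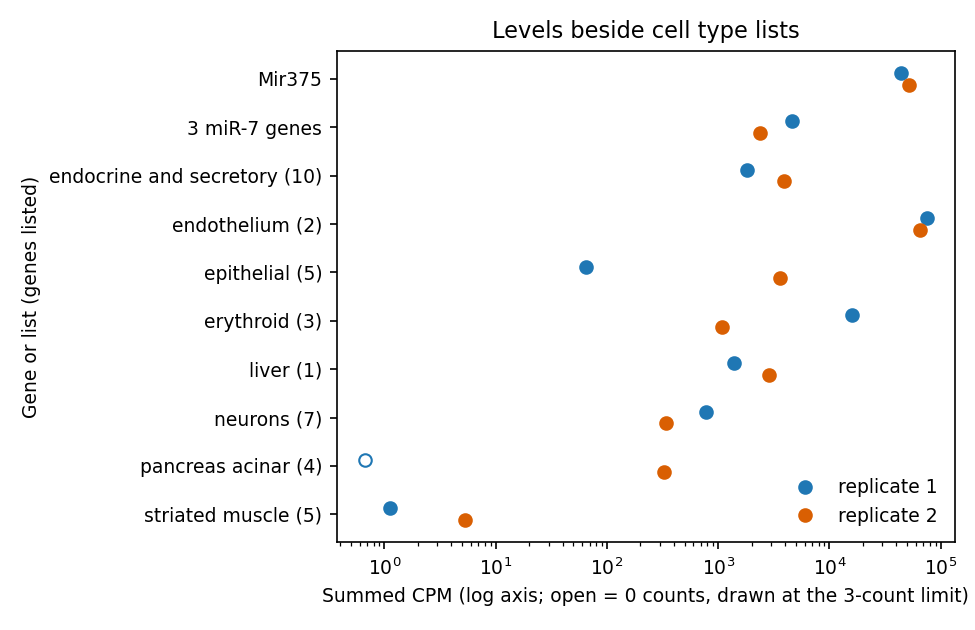
Summed CPM (log axis) of Mir375, the 3 miR-7 genes and each list of other cell types, in replicate 1 (blue) and replicate 2 (orange), with the number of listed genes in brackets and the open circle marking 0 counts, drawn at the limit of 3 counts. Mir375 lies between 44147 and 51780 CPM in both libraries, while the acinar list has 0 counts in replicate 1 and 326 CPM in replicate 2.

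The genes whose profile lay nearest to each member were found by the Euclidean distance of log2(CPM + 1) over the 2 libraries, among the 2201 other genes. With 2 libraries, such nearness reflects mainly the level. For Mir375 they were Mirlet7i at a distance of 0.56 and Mir126a at 0.83. For Mir7b they were Mir100 at 0.26 and Mir93 at 0.66. For Mir7-1 they were the gene annotated as Snord43, at 0.12, with 236 and 152 CPM, and Mir467d at 0.18, with 246 and 184 CPM. For Mir7-2 they were Mir223 at 0.12 and Mir543 at 0.24, the latter with 89.2 and 71.7 CPM. No miR-7 gene was among the nearest of another.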

How the data were processed

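Each deposited file gives the raw counts of 1 library by microRNA gene, per the layout of the files, in a strand-blind column and 1 column for each strand. The text deposited with them names mm10 and GENCODE M21. Which aligner and which counting tool made them is not given in the sources used here. The strand column with the larger gene total was taken as sense. Rows for reads that are unmapped, map to several places or lie outside genes (26.4%, 29.8% and 7.16% of replicate 1, 51.9%, 21.5% and 6.46% of replicate 2) were left out of library sizes. All 2202 identifiers matched GENCODE M21. Sequences are from RefSeq tables of GRCm38.p6, and hairpin GC content is from GENCODE transcripts. No genome sequence was used, so matches outside annotated hairpins were not searched, and CAST/EiJ alleles were not considered.

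CPM was computed over all gene rows. Genes that reached 10 counts in each library were tested with an exact binomial test after TMM scaling, with Benjamini-Hochberg adjustment at 0.05. The edgeR exact test with a common dispersion of both libraries was an alternative. On simulated counts, the binomial test was run with known library sizes and counting noise alone, so TMM scaling was not covered. The edgeR exact test was run there without true differences, so its power was not covered. Members, lists and tests were chosen with earlier results of these data known. The genes named are the members, the 2 nearest profiles of each, their neighbours in the order of mean CPM, microRNA genes within 100 kb and the listed marker genes. The neighbours in that order were added to the rule after their values were seen. Other settings are in the closing section. Software was R 4.3.3, edgeR 4.0.16, DESeq2 1.42.0, Python 3.11.15 with pandas 2.3.3, SciPy 1.17.1, matplotlib 3.10.9 and NumPy 2.4.6.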

Additional observations from a re-analysis of the deposited data

How the results depend on the processing

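Of 32 log2 ratios of the 4 genes under other settings, 23 kept their direction and call. With 2 libraries, leaving out either one moves a mean by less than 1 SD whatever its values, which says nothing of stability. It moved Mir7b between 2129 and 4326 CPM and the ratio of Mir375 to Mir7b between 10.2 and 24.3. With the strand-blind column the level was 58923 CPM for Mir375 and 110.1 CPM for Mir7-2, the share of the 4 genes was 6.32%, and Mir375 had a log2 ratio of 0.011 that missed the threshold (adjusted p = 0.061, exact binomial test). With the total taken without the highest gene, these levels were 55738 and 103 CPM and the share 5.97%. Scaled to all reads of a file, with those of no gene included, the CPM were 13287 for Mir375, 1005.5 for Mir7b, 59.1 for Mir7-1 and 26.0 for Mir7-2. These 3 settings change mainly the total. Divided by hairpin length, Mir375 stood 29.9-fold above Mir7b.

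The log2 ratio of Mir375 reversed to -0.0070 with a minimum of 5 counts, -0.12 without a minimum and -0.48 with the GC correction, with adjusted p from the exact binomial test of 0.25 in the first. The counts of Mir375 are the same in all 3. The count filters change its ratio only through the TMM factors of replicates 1 and 2. These were 0.938 and 1.07 with a minimum of 10 counts, and 0.885 and 1.13 without a minimum. Mir7b moved with Mir375, from -1.21 to -1.38 without a minimum. Why the log2 ratio rises with GC content was not tested. Mir7-2 was at -0.21 with library size alone and missed the threshold. The edgeR exact test called 6 genes, and left Mir375 (0.045), Mir7b (-1.21), Mir7-1 (-0.69) and Mir7-2 (-0.40) uncalled. The number of calls was within 1.5 times of 260 under the other 7 settings. A ratio between libraries needs both, so leaving out a library gave no value for it. No paired analysis was possible because there is a single group.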
